A study of Mus musculus with 16 samples.

Results

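The 10 genes described here build and fill the MHC class I molecule: H2-K1 and H2-D1, the classical heavy chains, B2m, their light chain, Tap1 and Tap2, the subunits of the peptide transporter, Tapbp, which encodes tapasin, Psmb8, Psmb9 and Psmb10, the immunoproteasome subunits, and Nlrc5, a transcriptional activator of class I genes. They were taken by symbol, and all 10 were found among the 48440 genes of the count tables. Their unique molecular identifiers (UMIs, 1 per captured transcript) were summed per library and cell type in single-cell RNA-seq libraries of mouse inguinal lymph nodes, made from single-cell suspensions enriched for PDPN, a membrane glycoprotein of lymphatic endothelial cells (LECs) and fibroblastic reticular cells. MC38 is a mouse colon carcinoma line, given under the skin of the lower right flank of 8-week-old, sex-matched C57Bl/6 mice.

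The 5 groups were draining nodes of mice with live MC38 cells (live draining, n = 3 libraries), contralateral non-draining nodes of mice with live cells (live non-draining, n = 3), draining nodes of mice with paraformaldehyde-fixed MC38 cells (fixed draining, n = 3), contralateral non-draining nodes of mice with fixed cells (fixed non-draining, n = 3), and nodes of naive mice (n = 4). Which libraries are naive rests on the sample titles alone, as the cell line label of these libraries also reads MC38. The study's abstract names naive mice, but its methods do not describe them. Nodes of inoculated mice were taken on day 12. Draining and non-draining nodes lay in the same animals, but no label ties a draining library to the non-draining library of its mouse, and nothing says that the 4 naive libraries came from 4 mice, so p-values measure the spread between libraries.

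Class I molecules show peptides of the cell's own proteins to CD8+ T cells. The proteasome cuts the proteins, and interferon-gamma exchanges its constitutive catalytic subunits for the immunoproteasome subunits. TAP carries the peptides into the endoplasmic reticulum, where tapasin holds empty heavy chain and B2m beside the transporter until a peptide is bound. The promoters of class I genes carry an NF-kB site, an interferon-stimulated response element and an SXY module, whose cyclic-AMP-response-like X2 box and inverted CCAAT (Y) box are bound by a complex that NLRC5 joins. In lymph nodes, LECs present peripheral tissue antigens and acquired antigens on class I, and class I is constitutive on nearly all nucleated cells.

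Of the 10 genes, 7 lie in or beside the H2 complex on chromosome 17, B2m lies on chromosome 2, and Psmb10 and Nlrc5 lie on chromosome 8. In the GENCODE vM21 annotation of GRCm38, H2-K1 spans chr17:33996017-34000347 on the minus strand and H2-D1 spans chr17:35262730-35267499 on the plus strand. Tapbp (chr17:33915899-33929292), Psmb9 (chr17:34181987-34187764), Tap1 (chr17:34187553-34197225), Psmb8 (chr17:34197721-34201454) and Tap2 (chr17:34203527-34216321) lie between those heavy chains or beside H2-K1. B2m spans chr2:122147686-122153083, Psmb10 chr8:105935735-105938444 and Nlrc5 chr8:94434356-94527272. Tap1 and Psmb9 overlap head to head, Tapbp overlaps Zbtb22 on the same strand, and Tap2 and Psmb8 overlap Gm20496, so counts of these genes could include reads of their neighbours. H2-K1 and H2-D1 are near-identical over long stretches, and how the authors' counting divided reads that match both is uncertain.

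The promoters of the heavy chains and B2m are shown because they carry the SXY-type pair that NLRC5 is known to use. Sequences are from RefSeq on GRCm38.p6, where 8 of the 10 genes matched. Capitals mark TGACG (the core of the X2 box), ATTGG (the inverted CCAAT box) and, upstream, the NF-kB-type run in H2-K1 and B2m and the interferon-response-type run GAAACTGAAA in B2m. The H2-K1 stretch is chr17:34000355-34000464 (minus strand), the H2-D1 stretch chr17:35262993-35263022 (plus strand, only the pair, upstream of the RefSeq start but inside an exon of the longer vM21 gene) and the B2m stretch chr2:122147533-122147642 (plus strand).
H2-K1: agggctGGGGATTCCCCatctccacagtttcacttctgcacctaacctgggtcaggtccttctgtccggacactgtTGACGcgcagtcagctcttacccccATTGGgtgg
H2-D1: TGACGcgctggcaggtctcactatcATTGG
B2m: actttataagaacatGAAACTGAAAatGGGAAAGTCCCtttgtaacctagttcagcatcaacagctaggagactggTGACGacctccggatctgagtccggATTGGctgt

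In each of the 3 promoters ATTGG starts 20 bases after the end of TGACG. Of 27025 promoters searched over the 250 bases before the start, on both strands, 25 (0.0925%) held this arrangement, and 3 of those 25 were H2-K1, H2-D1 and B2m. Over a 110-base window around the pair H2-K1 and H2-D1 shared 99 of 110 bases, H2-K1 and B2m 47 of 110 and H2-D1 and B2m 46 of 110. Single motifs were more common. The NF-kB pattern (GGG and CC with NNNNN between them) was found in 5 of the 8 promoters (H2-K1, H2-D1, B2m, Tap1 and Psmb9) and in 45.4% of all promoters, and TGACG in the same 5 and in 17.9% of all. CCAAT was found in 6 of 8 (those 5 and Tapbp) and in 34.5% of all. The interferon-stimulated pattern (GAAA, then NN, then GAAA) was found in B2m alone of the 8 and in 3.04% of all. These patterns may overlap one another and a match is a description of the letters. The search took exact letters only, so a promoter without a match may still carry the element.

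The libraries held 68741 barcodes (1575 to 8039 per library) and 7486725 to 48945961 UMIs per library. After the filters on cells 50386 remained (1065 to 5132 per library, median UMIs per cell 3421 to 5098), of which 37585 (74.6%) fell to 1 of 12 lineages by detected markers. Any pair of libraries shared 0 to 10 barcodes. The limit of 6000 genes per cell removed 267 to 295 cells per library in the live draining group, against 15 to 91 in the other groups. Levels are CPM, a gene's UMIs scaled to the same fixed total in each library and type, after TMM scaling where groups are compared. A change is a log2 fold change ± its standard error from edgeR's quasi-likelihood test, and a gene is called higher or lower where its p, adjusted over all genes tested in that type (Benjamini-Hochberg), is under 0.05. Ceiling (cLEC), floor (fLEC), medullary (MedLEC) and cortical (CorLEC) LECs line the roof and floor of the subcapsular sinus, the medulla and the cortical sinuses. T-zone (TRC), marginal (MRC) and medullary (MedRC) reticular cells are fibroblastic cells of those zones.

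In naive nodes H2-K1 and B2m were highest in MedLECs and H2-D1 and Tap2 in fLECs, and the immunoproteasome genes Psmb8 and Psmb9, Tapbp, Tap1 and Nlrc5 were highest in dendritic cells, the professional antigen-presenting cells. Levels here are CPM before TMM scaling, as the median over 4 naive libraries, and CPM of different genes are not compared. H2-K1 was at 5390.2 (range 5352 to 5532) CPM in MedLECs, above and apart from fLECs at 5100.5 (range 4980.2 to 5176), and fLECs, CorLECs and dendritic cells (4290.3, range 4257 to 4742) overlapped one with the next. CorLECs (5077, range 4535 to 5640) also overlapped MedLECs. The lowest was MRC at 1286 (range 1152 to 1737), and TRC had 2108. Blood endothelial cells (3518) overlapped cLECs (3362) for H2-K1. H2-D1 led in fLECs (3798, range 3686 to 3838), which overlapped dendritic cells (3314), and was lowest in plasma cells (914, range 679 to 1077), which overlapped MRC (1052). B2m led in MedLECs (6802, range 6408 to 7331), overlapping fLECs (6665), and was lowest in B cells (1519.8, range 1301 to 1778), below MRC (2199) without overlap.

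The peptide supply genes had another order of types. Psmb8 had 1065 (range 1036 to 1072) CPM in dendritic cells, apart from T cells (462) and fLECs (460.3), which overlapped, and 112 (range 88.2 to 161) in MRC. Psmb9 had 566 (range 541 to 572) in dendritic cells, 283 in fLECs and 78.1 in MRC. Psmb10 had 252 in fLECs, 228 in monocytes or macrophages and 225 in dendritic cells, neighbours that overlapped, and 84.9 in plasma cells. Tap1 led in dendritic cells (332, range 320.0 to 344), apart from B cells (226) and fLECs (218), and had 61.7 in MRC. Tap2 led in fLECs (338, range 326 to 369), overlapping MedLECs (335), with 242 in dendritic cells and 79.7 in mast cells. Tapbp led in dendritic cells (602, range 554 to 656), apart from fLECs (473), and had 181 in MRC. Nlrc5 was at 154 (range 145 to 164) in dendritic cells, 73.2 in T cells, 38.6 in fLECs and 7.46 (range 2.84 to 12.0) in MRC. Within LECs the order fLEC above cLEC held for all 10 medians, with 3362 CPM of H2-K1, 4517 of B2m and 119 of Tap1 in cLECs.

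**Figure D1:**
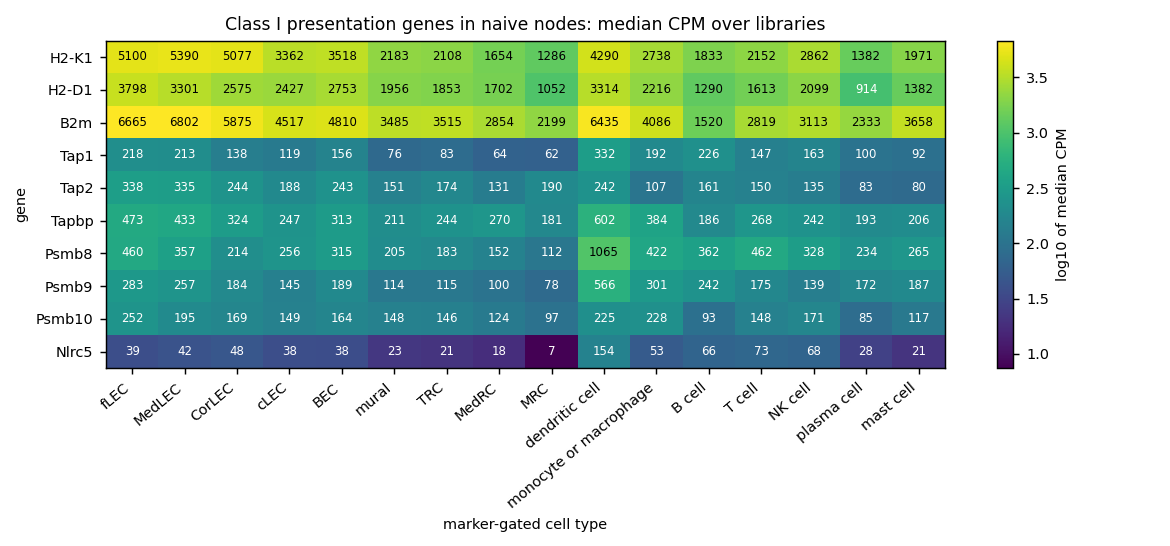
Level of each of the 10 genes by cell type in naive nodes, as the median CPM of summed UMIs over the naive libraries. MedLECs and fLECs carried the most H2-K1 and B2m (H2-K1 5390.2 and 5100.5 CPM), dendritic cells the most Psmb8 (1065) and Tap1 (332), and MRC were the lowest type for 6 of the 10 genes.

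With a live tumor, all 10 class I genes were higher in draining fLECs than in non-draining fLECs, and each of the 3 live draining libraries lay above each of the 3 live non-draining libraries for every gene. Tap1 changed most, and B2m and Tap2 least. The background, the share of all 11392 genes tested in fLECs that were called in this comparison, was 26.2%, and 14.5% of the genes tested were called higher. All 3 live draining libraries lay above all 3 live non-draining libraries for 20.8% of the genes tested. The median log2 fold change of the 10 members was 0.50, against -0.01 over all genes. The values rest on 173 to 261 fLECs per live draining library and 79 to 157 per live non-draining library.

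Among the genes that make peptides, Psmb8, which encodes the LMP7 subunit, had 702, 732 and 750.4 TMM-scaled CPM in live draining fLECs, against 521, 470.3 and 398 in live non-draining fLECs. The groups did not overlap, and the log2 fold change was 0.64 ± 0.09, adjusted p = 2.9e-08. Psmb9 (LMP2) had 454, 432 and 452 TMM-scaled CPM in live draining fLECs, against 323, 313 and 292 in live non-draining fLECs, and Psmb10 (MECL-1) had 406, 401 and 376 TMM-scaled CPM in live draining fLECs, against 302, 287 and 239 in live non-draining fLECs. Both were higher in draining fLECs, Psmb9 by 0.52 ± 0.08, adjusted p = 4.0e-07, and Psmb10 by 0.50 ± 0.08, adjusted p = 2.4e-06.

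The transporter subunits moved unequally. Tap1 had 435, 419 and 445 TMM-scaled CPM in live draining fLECs, against 196, 205 and 200.4 in live non-draining fLECs. Its log2 fold change, the largest of the 10, was 1.11 ± 0.08, adjusted p = 2.9e-17. Tap2, whose protein pairs with that of Tap1, had 432, 445 and 431 TMM-scaled CPM in live draining fLECs, against 328, 402 and 367 in live non-draining fLECs. It was higher by 0.27 ± 0.08, adjusted p = 0.0096, and the call was lost for Tap2 without live non-draining A (0.18, adjusted p 0.13). Tapbp, which bridges transporter and heavy chain, had 777, 732 and 763 TMM-scaled CPM in live draining fLECs, against 493, 583 and 537 in live non-draining fLECs. Its log2 fold change was 0.50 ± 0.08, adjusted p = 1.1e-06. Scaling by library size alone in place of TMM moved every live log2 fold change in fLECs by -0.11, and Tap2 (0.16, adjusted p = 0.13) was then not called.

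For the class I molecule itself the fold changes were smaller than for Tap1. H2-K1 had 6739, 6713 and 6737 TMM-scaled CPM in live draining fLECs, against 5121, 5289 and 5245 in live non-draining fLECs, a rise of 0.37 ± 0.09, adjusted p = 8.7e-04. H2-D1 had 5219, 5296 and 5402 TMM-scaled CPM in live draining fLECs, against 3713, 3959 and 3651 in live non-draining fLECs, and its log2 fold change was 0.49 ± 0.09, adjusted p = 8.7e-06. B2m had 8357, 8366 and 8455 TMM-scaled CPM in live draining fLECs, against 6534, 6529 and 6796 in live non-draining fLECs, with a log2 fold change of 0.34 ± 0.09, adjusted p = 0.0028. The 3 live draining libraries lay within a narrow band for each of these abundant transcripts. Nlrc5, the transactivator, had 68.8, 65.2 and 50.3 TMM-scaled CPM in live draining fLECs, against 41.0, 33.6 and 38.2 in live non-draining fLECs. It was higher by 0.70 ± 0.15, adjusted p = 2.8e-04.

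**Figure D2:**
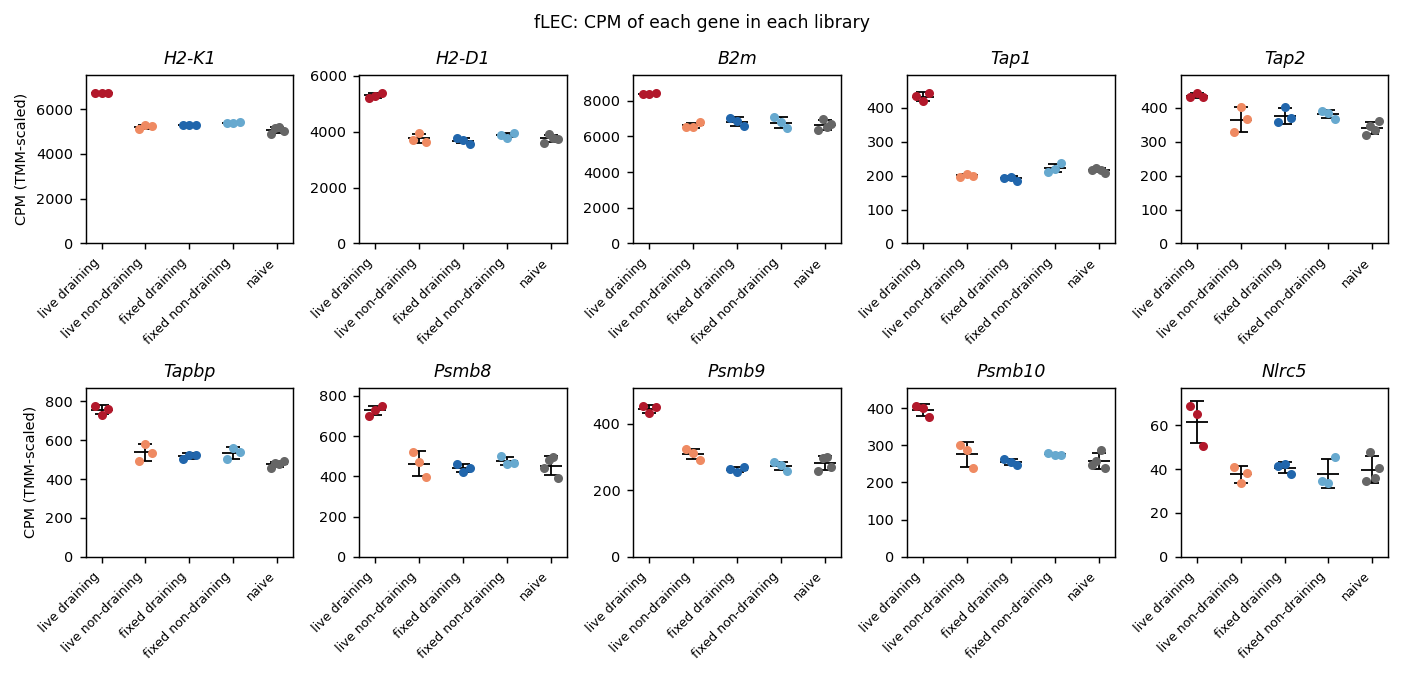
Each of the 10 genes in fLECs, 1 point per library, as TMM-scaled CPM, with the mean ± SD of each group (n = 3 libraries, naive n = 4). The live draining libraries stand above all 13 others for each gene, for example Tap1 at 435, 419 and 445 against 218, 223, 217 and 208 in naive fLECs.

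With fixed MC38 cells no member was called between fixed draining and fixed non-draining fLECs (background 0.0439%) by edgeR or by DESeq2, and the member median was -0.05. Tap1 alone had an unadjusted p under 0.05, 1 of 10. Tap1 had 194, 197 and 185 in fixed draining fLECs, against 212, 219.9 and 237 in fixed non-draining fLECs, with a log2 fold change of -0.21 ± 0.08, adjusted p = 0.65. H2-K1 had 5288, 5278 and 5306 in fixed draining fLECs, against 5373, 5385 and 5408 in fixed non-draining fLECs. The fixed draining libraries of Tap1 lay below the fixed non-draining ones, and those of H2-K1 too.

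The draining effect itself differed between the inocula for 7 of 10 genes (background 12.2%): Tap1 by 1.32 ± 0.11, adjusted p = 4.6e-13, Psmb8 by 0.76 ± 0.12, adjusted p = 6.8e-06, Psmb10 by 0.61 ± 0.12, adjusted p = 1.4e-04, Psmb9 by 0.58 ± 0.11, adjusted p = 1.6e-04, H2-D1 by 0.57 ± 0.12, adjusted p = 6.3e-04, Tapbp by 0.54 ± 0.11, adjusted p = 3.7e-04, and H2-K1 by 0.39 ± 0.12, adjusted p = 0.025. For B2m (0.33 ± 0.13, adjusted p = 0.083), Tap2 (0.29 ± 0.11, adjusted p = 0.091) and Nlrc5 (0.56 ± 0.23, adjusted p = 0.11) the difference was positive and did not pass the test. With 1 library left out the call was lost for H2-K1 without live draining A or C, fixed draining B or fixed non-draining B (0.39, adjusted p 0.054 to 0.055). The number called was 4 with at most 50 cells per library and 4 with at most 1 marker of another lineage.

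Against naive nodes, all 10 genes were higher in live draining fLECs (background 30.9%), and the log2 fold changes ran from 0.34 for B2m to 1.00 for Tap1. None was called in live non-draining (background 0.202%), fixed draining (0.518%) or fixed non-draining fLECs (0.957%). By edgeR 1 gene had an unadjusted p under 0.05 in live non-draining fLECs, 1 in fixed draining fLECs and 2 in fixed non-draining fLECs, and DESeq2 called none. These comparisons share the naive libraries, and the first shares the live draining libraries with the comparison above. Naive fLECs had 4883, 5151, 5183 and 5046 TMM-scaled CPM of H2-K1, 6337, 6990.4, 6519 and 6672 of B2m and 439, 483, 495 and 394 of Psmb8. Among fLECs with at most 1 marker of another lineage, B2m (0.33, adjusted p = 0.077) and Nlrc5 (0.35, adjusted p = 0.24) were not called in live draining against naive.

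Cell by cell, the shift was seen at the median and above it, and for H2-D1, by a narrow margin, at the 10th percentile too. Per 10000 UMIs of a cell, median H2-K1 was 59.3 to 60.4 across the live draining libraries, against 51.0 to 51.9 across the live non-draining libraries. Its 90th percentile was 87.4 to 93.0 in live draining fLECs, against 66.8 to 73.3 in live non-draining fLECs, while the ranges of the 10th percentile overlapped, at 37.5 to 38.3 against 35.2 to 37.8. Median H2-D1 was 43.3 to 45.4 against 35.2 to 37.2, and median B2m 70.1 to 74.7 against 61.6 to 64.2. The 10th percentile of H2-D1 was 22.9 to 26.3 against 19.6 to 22.7, ranges that came close but did not overlap. That of B2m overlapped, at 34.7 to 42.2 against 33.6 to 41.2. For each of the 3 genes the ranges of the medians did not overlap. Median UMIs per fLEC were 14065 to 15376 in live draining libraries, against 8844 to 11324 in live non-draining libraries. The part of this depth in the percentiles was not tested.

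Markers of other cells also differed in live draining fLECs, and not all in the same direction. The summed CPM of 15 leukocyte markers (0 at 0 in the live draining group and 1, Cd3e, at 0 in live non-draining fLECs) was 1173 to 1346 in live draining fLECs, against 889 to 1132 in live non-draining fLECs, with 1033 to 1125 in fixed draining, 950.5 to 995 in fixed non-draining and 1098 to 1209.5 in naive fLECs. The 5 fibroblastic gate markers summed to 107 to 195 in live draining, against 23.1 to 31.6 in live non-draining fLECs, the B cell markers to 34.8 to 47.6 against 19.7 to 33.7, the T cell markers to 13.5 to 15.1 against 19.7 to 31.3, the monocyte or macrophage markers to 166 to 311 against 84.4 to 176, and the dendritic cell markers to 256 to 277 against 215 to 222. The 5 LEC markers summed to 1409 to 1497 against 1648 to 1678, with Prox1 at -0.76, Mmrn1 at -0.86 and Lyve1 at 0.60 on the log2 scale. The gate's own fLEC markers were higher (Coch 0.86, Glycam1 0.87 and Madcam1 0.46), as were the MedLEC markers Marco (4.74) and Itga2b (0.55), whereas Clec4g was lower (-2.83). Their part in the class I values was not tested. Among fLECs with at most 1 detected marker of any other lineage, an alternative chosen after seeing the data, 6 of 10 calls were kept: Tap1 (1.00, adjusted p = 3.4e-09), Psmb8 (0.75, adjusted p = 7.0e-05), Psmb10 (0.57, adjusted p = 3.2e-04), Psmb9 (0.51, adjusted p = 7.0e-04), H2-D1 (0.47, adjusted p = 0.013) and Tapbp (0.33, adjusted p = 0.049). Not called were H2-K1 at 0.37, adjusted p = 0.069, B2m at 0.37, adjusted p = 0.086, Tap2 at 0.32, adjusted p = 0.061 and Nlrc5 at 0.39, adjusted p = 0.30.

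In draining cLECs with a live tumor both heavy chains, B2m, Tap1, Psmb8 and Psmb10 were higher. These 6 of 10 stand against a background of 16.6% (8.48% higher, with 15.7% of genes fully separated upward). The member median was 0.26, against -0.01 over all genes. H2-D1 had 3032, 3054 and 3381 TMM-scaled CPM in live draining cLECs, against 2316, 2184 and 2422 in live non-draining cLECs, with a log2 fold change of 0.45 ± 0.07, adjusted p = 1.0e-06. H2-K1 had 4081, 3973 and 4126 TMM-scaled CPM in live draining cLECs, against 3471, 3300.1 and 3429 in live non-draining cLECs, and B2m had 5548, 5178 and 5536 TMM-scaled CPM in live draining cLECs, against 4642, 4416 and 4410.2 in live non-draining cLECs. Both were separated between groups, H2-K1 by 0.26 ± 0.07, adjusted p = 0.0039 and B2m by 0.27 ± 0.07, adjusted p = 0.0032.

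Psmb8 had 352, 349.8 and 363 TMM-scaled CPM in live draining cLECs, against 269.7, 264 and 225 in live non-draining cLECs (0.48 ± 0.08, adjusted p = 6.3e-06). Tap1 had 159.6, 157 and 178 TMM-scaled CPM in live draining cLECs, against 118, 141 and 110.1 in live non-draining cLECs (0.44 ± 0.10, adjusted p = 0.0014), and the log2 fold change of Psmb10 was 0.26 ± 0.09, adjusted p = 0.048. In fLECs the log2 fold change of Tap1 was 1.11, and the difference between the subsets was not tested. Not called were Tapbp (0.15 ± 0.08, adjusted p = 0.20), Psmb9 (0.07 ± 0.10, adjusted p = 0.71), Tap2 (-0.12 ± 0.09, adjusted p = 0.38) and Nlrc5 (-0.38 ± 0.17, adjusted p = 0.11).

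With fixed cells, all 10 log2 fold changes in cLECs were below 0, and 2 genes were called lower (background 0.237%). Psmb8 had 217, 226 and 221 TMM-scaled CPM in fixed draining cLECs, against 275, 261 and 312 in fixed non-draining cLECs (-0.35 ± 0.08, adjusted p = 0.028), and Psmb10 had 124, 115 and 139 TMM-scaled CPM in fixed draining cLECs, against 152, 168 and 174 in fixed non-draining cLECs (-0.38 ± 0.09, adjusted p = 0.041). Both calls were lost with the margin of 2 markers (Psmb8 -0.50, adjusted p = 0.17 and Psmb10 -0.33, adjusted p = 0.71), with at most 1 marker of another lineage (Psmb8 -0.42, adjusted p = 0.50 and Psmb10 -0.40, adjusted p = 0.61) and with the replicate block (Psmb8 -0.34, adjusted p = 0.052 and Psmb10 -0.38, adjusted p = 0.063), and of 10 alternatives 5 kept that of Psmb8 and 1 that of Psmb10. The effect of draining was not the same with live and fixed inocula for 7 genes (background 10.3%), by 0.83 for Psmb8, 0.69 for Tap1, 0.64 for Psmb10, 0.62 for H2-D1, 0.44 for H2-K1, 0.44 for B2m and 0.36 for Tapbp. Against naive cLECs, 8 genes were higher in live draining cLECs, all but Tap2 and Nlrc5 (background 15.6%). In fixed non-draining cLECs 9 of 10 lay above naive (median log2 fold change 0.15). None of these was called by edgeR (background 1.49%) and 2 were by DESeq2. In fixed draining cLECs 4 of 10 lay above naive (median -0.10), and neither tool called any (background 1.43%). The 15 leukocyte markers (0 at 0 in the live draining group and 2, Cd3e and Nkg7, at 0 in live non-draining cLECs) summed to 152 to 177 CPM in live draining, against 107 to 135 in live non-draining cLECs, and the fibroblastic markers to 226 to 259 against 80.1 to 147. The cLEC marker Cd36 was lower (-1.09) and the MedLEC and fLEC markers Itga2b (2.84) and Glycam1 (2.99) higher in draining cLECs, and their part was not tested. The number of live calls was 2 with at most 1 detected marker of another lineage, 3 with a margin of 2 markers in the gate and 3 with at most 50 cells per library. With 1 library left out the live call was lost for Psmb10 without live draining A or B, live non-draining A, B or C or fixed draining A (0.24 to 0.29, adjusted p 0.051 to 0.14), and with fixed cells it was lost for Psmb8 without fixed draining A, B or C or fixed non-draining A, B or C (-0.39 to -0.28, adjusted p 0.052 to 0.25) and Psmb10 without live draining B, fixed draining A or B, fixed non-draining A, B or C or naive D (-0.44 to -0.32, adjusted p 0.052 to 0.32). For the difference between inocula it was lost for Tapbp without live non-draining B, fixed draining A or B or fixed non-draining A or B (0.31 to 0.36, adjusted p 0.052 to 0.082). Against naive it was lost for Psmb9 without live draining B or naive B or D (0.21 to 0.25, adjusted p 0.058 to 0.14) and Psmb10 without live draining A or B or naive B (0.21 to 0.24, adjusted p 0.064 to 0.092).

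In MedLECs, 35 to 58 cells per live draining and 23 to 60 per live non-draining library, Tap1 and Psmb8 were called (background 6.24%). Tap1 had 354, 383 and 389 TMM-scaled CPM in live draining MedLECs, against 156, 177 and 245 in live non-draining MedLECs (1.01 ± 0.16, adjusted p = 1.1e-05). Psmb8 had 446, 546 and 493 TMM-scaled CPM in live draining MedLECs, against 319, 299 and 279 in live non-draining MedLECs (0.71 ± 0.15, adjusted p = 9.2e-04), again without overlap. H2-K1 had a log2 fold change of -0.06 ± 0.14, adjusted p = 0.88. No member was called with fixed cells (background 0.0234%), none had an unadjusted p under 0.05, and DESeq2 called none, and the draining effect differed between inocula for Tap1 (1.16 ± 0.23, adjusted p = 0.0011) and Psmb8 (0.75 ± 0.21, adjusted p = 0.039; background 1.99%). Tap1, Tapbp, Psmb8 and Psmb10 were higher in live draining than in naive MedLECs (background 5.84%). Single libraries decided some of these calls, which were lost for the difference of Psmb8 without live draining B or C, live non-draining B or C, fixed draining A or B or fixed non-draining A (0.59 to 0.76, adjusted p 0.0505 to 0.23), and against naive for Tapbp without live draining A or C or naive B or D (0.36 to 0.43, adjusted p 0.053 to 0.12), Psmb8 without live draining B or C or naive B or D (0.35 to 0.44, adjusted p 0.056 to 0.22) and Psmb10 without live draining B or C or naive A, C or D (0.40 to 0.47, adjusted p 0.054 to 0.18). With at most 1 marker of another lineage, Tap1 was at 0.81, adjusted p = 0.11 and Psmb8 at 0.44, adjusted p = 0.54. In CorLECs, with 29 to 32 cells per live draining library, none of the 10 was called in the live (background 0.288%) or fixed comparison (0.0%). At an unadjusted p under 0.05 there was 1 in the live and 0 in the fixed comparison, and DESeq2 called 1 in the live and none in the fixed one. Psmb8 came nearest, with 326, 429 and 378 TMM-scaled CPM in live draining CorLECs, against 301, 131 and 131 in live non-draining CorLECs (0.91 ± 0.23, adjusted p = 0.054).

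Summed over all LECs, with more cells per library, the live comparison called 8 genes higher, all but Tap2 and Nlrc5 (background 35.1%, 18.3% higher), and the fixed comparison called 4 lower: Tap1 (-0.30 ± 0.06, adjusted p = 0.0036), Psmb10 (-0.30 ± 0.07, adjusted p = 0.008), Psmb9 (-0.23 ± 0.06, adjusted p = 0.042) and Tapbp (-0.22 ± 0.05, adjusted p = 0.017; background 2.55%, 1.01% lower). The largest live changes over all LECs were Tap1 (0.92 ± 0.06) and Psmb8 (0.72 ± 0.08). The effects differed between inocula for 9 genes, all but Nlrc5 (background 22.9%), and all 10 were higher in live draining than in naive LECs (background 36.0%). In fixed non-draining LECs 9 of 10 lay above naive (median log2 fold change 0.13), with 2 called higher (background 5.16%). In fixed draining LECs 3 of 10 lay above naive (median -0.07), with 1 called lower (background 3.07%). With 1 library left out, the fixed call was lost for Psmb9 without live draining A, B or C, fixed draining A, B or C or fixed non-draining A, B or C (-0.25 to -0.21, adjusted p 0.052 to 0.19), Tapbp without fixed draining A or B or fixed non-draining B (-0.22 to -0.20, adjusted p 0.082 to 0.11) and Psmb10 without fixed draining B (-0.27, adjusted p 0.067), and the difference between inocula for Tap2 without live draining B, fixed draining A or fixed non-draining A (0.23, adjusted p 0.055 to 0.063). Under the gate with a margin of 2 markers none of the fixed calls passed: Tap1 -0.27, adjusted p = 0.15, Psmb10 -0.23, adjusted p = 0.29, Psmb9 -0.22, adjusted p = 0.34 and Tapbp -0.23, adjusted p = 0.18. With at most 1 marker of another lineage they were Tap1 -0.20, adjusted p = 0.59, Psmb10 -0.21, adjusted p = 0.56, Psmb9 -0.18, adjusted p = 0.63 and Tapbp -0.26, adjusted p = 0.23. This gate also lost the live calls of H2-K1 (0.22, adjusted p = 0.11) and B2m (0.27, adjusted p = 0.058). Against naive it lost those of H2-K1 (0.24, adjusted p = 0.057), B2m (0.19, adjusted p = 0.19) and Nlrc5 (0.27, adjusted p = 0.10). The margin of 2 markers lost the live call of H2-K1 (0.20, adjusted p = 0.086). The fLECs, which had the higher levels, were 676 of 2044 LECs in live draining nodes, against 323 of 1217 in live non-draining nodes, and 644 of 2524 in fixed draining nodes, against 322 of 1152 in fixed non-draining nodes, and the part of these shares was not tested.

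**Figure D3:**
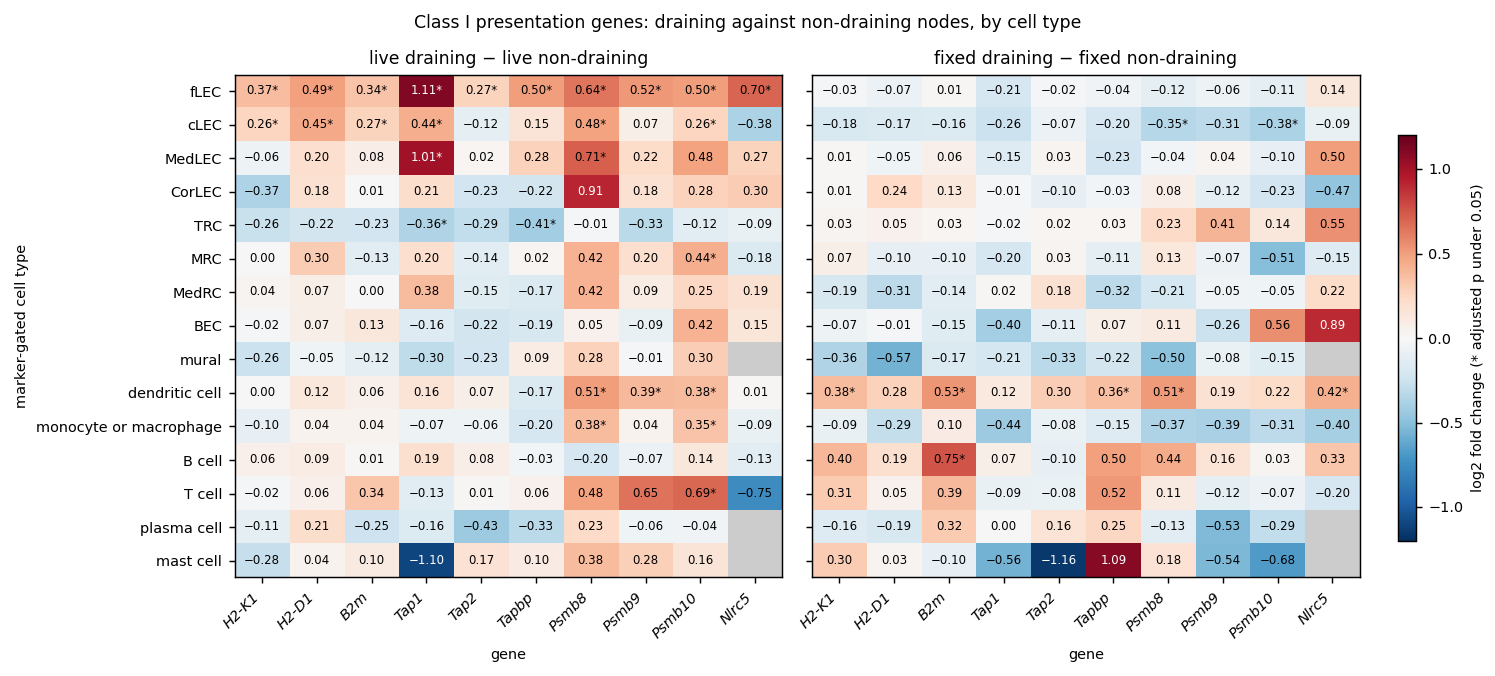
Log2 fold change of each gene, draining over non-draining, by cell type, with the live inoculum on the left and the fixed inoculum on the right; * marks an adjusted p under 0.05 and grey a gene not tested. In the live panel all 10 genes of the fLEC row (Tap1 1.11), 6 of the cLEC row, Tap1 and Psmb8 of MedLEC and the 3 immunoproteasome genes of dendritic cells are marked increases. The fixed panel marks increases in dendritic cells (B2m 0.53) and B cells (B2m 0.75) and decreases in cLECs (Psmb8 -0.35).

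Over all fibroblastic cells no member was called higher with a live tumor and 2 were called lower (background 25.5%, 11.8% lower), with a member median of -0.04. Tap2 had 154, 148 and 159 TMM-scaled CPM in live draining, against 171, 184 and 191 in live non-draining fibroblastic cells (-0.24 ± 0.06, adjusted p = 0.006), and Tapbp had 214, 206 and 215 in live draining, against 231, 236 and 247 in live non-draining fibroblastic cells (-0.17 ± 0.06, adjusted p = 0.044). No member was called with fixed cells (background 0.0474%) or for the difference between inocula (background 6.93%). Against naive fibroblastic cells, live draining ones had more Tap1 (0.29 ± 0.06, adjusted p = 7.2e-04), Psmb8 (0.25 ± 0.09, adjusted p = 0.03) and Psmb10 (0.21 ± 0.06, adjusted p = 0.0093) and less Tapbp (-0.21 ± 0.05, adjusted p = 0.0029; background 35.9%). By edgeR 1 gene had an unadjusted p under 0.05 in each of the fixed comparison and the difference between inocula, and DESeq2 called none. Of the fibroblastic cells 463 of 3542 were MedRC in live draining nodes, against 336 of 1072 in live non-draining and 1040 of 3105 in naive nodes, and 542 were MRC in live draining nodes, against 121 in live non-draining and 238 in naive nodes. Naive MedRC had 269.8 CPM of Tapbp and naive MRC 181, and the part of these shares was not tested. With at most 1 marker of another lineage the calls against naive were lost for Psmb8 0.14, adjusted p = 0.45, Psmb10 0.06, adjusted p = 0.75 and Tapbp -0.22, adjusted p = 0.12. The 2 live calls became none with at most 1 marker of another lineage or at most 50 cells per library. A single library decided the live call of Tapbp without live draining A, B or C, live non-draining B or C, fixed draining A or C or naive A, B or C (-0.18 to -0.14, adjusted p 0.053 to 0.16), and against naive those of Psmb8 without live draining A or C or naive A or D (0.23 to 0.25, adjusted p 0.055 to 0.098) and Psmb10 without live draining C (0.19, adjusted p 0.051).

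Within TRC, which guide T cells with CCL19 and CCL21, all 10 log2 fold changes with a live tumor were below 0 (median -0.24, against -0.01 over all genes) and 2 were called lower (background 6.24%, 3.15% lower). Tapbp had 194, 186 and 199 TMM-scaled CPM in live draining TRC, against 239, 272 and 263 in live non-draining TRC (-0.41 ± 0.09, adjusted p = 0.0019). Tap1 had 95.5, 83.6 and 96.9 TMM-scaled CPM in live draining TRC, against 118, 107 and 129 in live non-draining TRC (-0.36 ± 0.11, adjusted p = 0.033). In both the draining libraries lay below the non-draining ones. Against naive TRC, 9 of 10 log2 fold changes were above 0 in live non-draining TRC (median 0.14), with 1 called higher (background 0.37%). In live draining TRC 3 of 10 were above 0 against naive (median -0.10), with 1 called lower (background 11.4%). Naive TRC had 77.2 to 98.7 CPM of Tap1 before TMM scaling. None was called with fixed cells (background 0.0%), where 1 had an unadjusted p under 0.05 and DESeq2 called none. Psmb9 differed between inocula (background 0.646%), with 110.5, 94.9 and 105 in live draining, against 135, 125 and 128 in live non-draining TRC, and 136, 117 and 134 in fixed draining, against 101, 87.0 and 105 in fixed non-draining TRC (-0.74 ± 0.18, adjusted p = 0.023). The 15 leukocyte markers (0 at 0 in the live draining group and 0 at 0 in live non-draining TRC) summed to 427 to 509 CPM in live draining TRC, against 610.2 to 1121 in live non-draining TRC, and the TRC marker Ccl19 was lower (-0.57); their part was not tested. With at most 1 marker of another lineage neither was called, Tapbp at -0.26, adjusted p = 0.74 and Tap1 with its sign turned at 0.33, adjusted p = 0.78. The call was also lost for Tap1 without live draining A or B or live non-draining A or C (-0.39 to -0.30, adjusted p 0.057 to 0.21) and, between inocula, for Psmb9 without live draining B, live non-draining A, fixed draining A or fixed non-draining B (-0.70 to -0.66, adjusted p 0.057 to 0.11). Over these fits the number of genes called was 1 without live draining A or B, and 4 without fixed non-draining A or B.

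In MRC, with 124 to 220 cells per live draining library and 26 to 61 per live non-draining library, Psmb10 was the one gene called (background 12.1%). It had 137, 155 and 161 TMM-scaled CPM in live draining MRC, against 111, 80.9 and 143 in live non-draining MRC, groups that overlapped (0.44 ± 0.15, adjusted p = 0.042), and its effect differed between inocula (0.95 ± 0.25, adjusted p = 0.022; background 2.52%). None was called with fixed cells (background 0.0216%), where 1 had an unadjusted p under 0.05 and DESeq2 called none. The live call was lost for Psmb10 without live draining B or C, live non-draining A or B or naive A (0.29 to 0.45, adjusted p 0.051 to 0.29), and the difference between inocula for Psmb10 without live draining B, live non-draining B or fixed non-draining A (0.80 to 0.94, adjusted p 0.051 to 0.097). In MedRC none was called in the live (background 8.63%) or fixed comparison (0.0182%). At an unadjusted p under 0.05 there were 3 in the live and 2 in the fixed comparison, and DESeq2 called none. The log2 fold change of H2-K1 was 0.00 ± 0.13, adjusted p = 1.00 in MRC and 0.04 ± 0.10, adjusted p = 0.89 in MedRC. Perivascular reticular cells (PRC) had too few cells for the draining comparisons. Against naive PRC (3 libraries each) none of 9 members tested was called in live draining ones by edgeR, the one tool run there (background 4.87%), and 1 had an unadjusted p under 0.05, Psmb8 (0.68 ± 0.29, adjusted p = 0.22). Follicular dendritic cells were not tested.

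**Figure D4:**
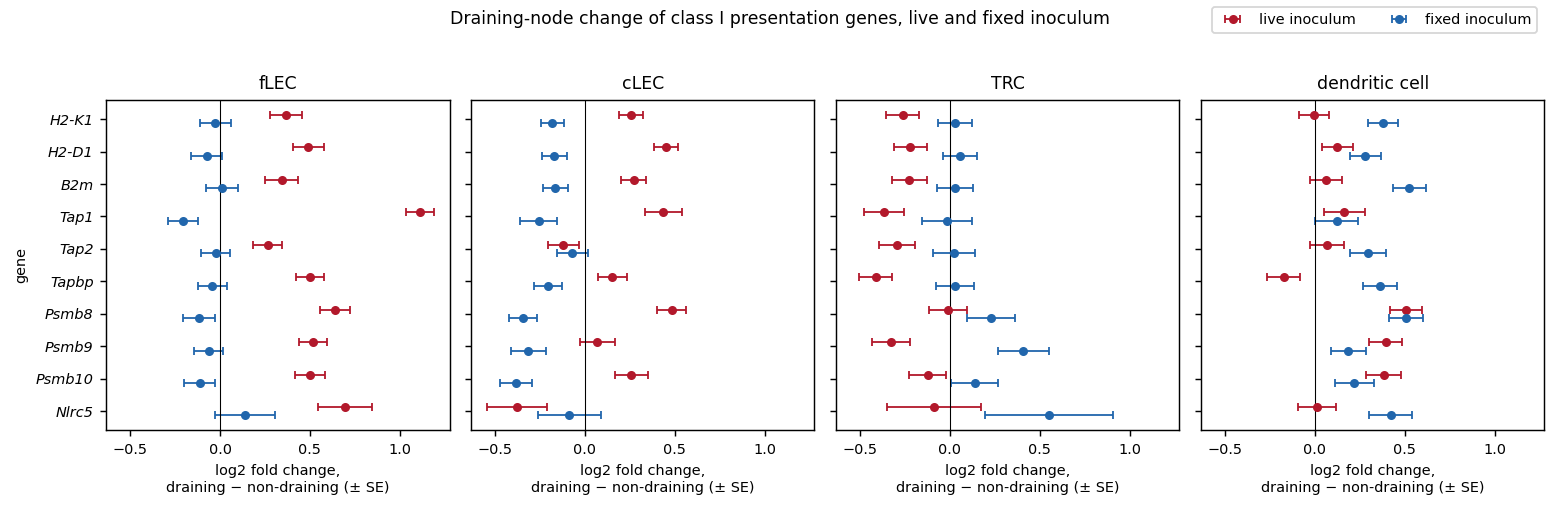
Log2 fold change ± SE of each gene, draining over non-draining, with the live inoculum in red and the fixed inoculum in blue, in fLECs, cLECs, TRC and dendritic cells. Red lies right of blue in fLECs (Tap1 1.11 with live and -0.21 with fixed cells), left of it in TRC, and in dendritic cells the order differs by gene (B2m 0.06 and 0.53).

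In dendritic cells with a live tumor the 3 immunoproteasome subunits were higher in the draining node, and neither heavy chain nor B2m was called (3 of 10 called, background 7.74%). Psmb8 had 1276, 1419 and 1298 TMM-scaled CPM in live draining dendritic cells, against 969.9, 950.5 and 891 in live non-draining dendritic cells (0.51 ± 0.09, adjusted p = 2.5e-04). Psmb9 had 693, 673 and 601 TMM-scaled CPM in live draining dendritic cells, against 517, 464 and 516 in live non-draining dendritic cells (0.39 ± 0.09, adjusted p = 0.0064), and Psmb10 had 282, 255 and 316 TMM-scaled CPM in live draining dendritic cells, against 212, 208 and 233 in live non-draining dendritic cells (0.38 ± 0.10, adjusted p = 0.012). In each of these the groups were apart. With at most 10% mitochondrial UMIs 1 of the 3 was called. With 1 library left out the call was lost for Psmb9 without live non-draining B (0.34, adjusted p 0.057) and for Psmb10 without live draining C or live non-draining B (0.31 to 0.35, adjusted p 0.056 to 0.085). The log2 fold change of H2-K1 was 0.00 ± 0.08, adjusted p = 0.99 and that of B2m 0.06 ± 0.09, adjusted p = 0.75.

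With fixed cells, H2-K1, B2m, Tapbp, Psmb8 and Nlrc5 were higher in draining dendritic cells (5 of 10, background 5.48%, 3.22% higher). B2m had 5679, 5625 and 4833 TMM-scaled CPM in fixed draining dendritic cells, against 3826, 3879.7 and 3497 in fixed non-draining dendritic cells (0.53 ± 0.09, adjusted p = 3.5e-04). H2-K1 had 4328, 4328 and 3929 TMM-scaled CPM in fixed draining dendritic cells, against 3080.3, 3407 and 3190.0 in fixed non-draining dendritic cells (0.38 ± 0.08, adjusted p = 0.0046). Psmb8 had 988, 1004 and 853 TMM-scaled CPM in fixed draining dendritic cells, against 598, 732 and 684 in fixed non-draining dendritic cells (0.51 ± 0.09, adjusted p = 6.2e-04), and Nlrc5 had 171, 179.7 and 140.2 TMM-scaled CPM in fixed draining dendritic cells, against 129, 124 and 111 in fixed non-draining dendritic cells (0.42 ± 0.12, adjusted p = 0.029). Tapbp was higher by 0.36 ± 0.09, adjusted p = 0.016. The draining effect differed between inocula for B2m (-0.46 ± 0.13, adjusted p = 0.027) and Tapbp (-0.53 ± 0.13, adjusted p = 0.012; background 4.82%). Single libraries decided the fixed calls of Nlrc5 without fixed draining A or B or fixed non-draining A, B or C (0.35 to 0.49, adjusted p 0.063 to 0.15) and Tapbp without fixed draining A or B or fixed non-draining A or C (0.30 to 0.37, adjusted p 0.054 to 0.13), and the differences between inocula of B2m without live draining B, live non-draining B, fixed draining A or B or fixed non-draining C (-0.46 to -0.37, adjusted p 0.059 to 0.13) and Tapbp without fixed non-draining A (-0.47, adjusted p 0.055). The number called with fixed cells was then 3 without fixed draining A or B or fixed non-draining A, and 7 without fixed draining C, and it was 2 with a margin of 2 markers in the gate.

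Against naive, 8 genes were lower in fixed non-draining dendritic cells, all but Tap1 and Tap2 (background 14.0%), from -0.33 for Psmb10 to -0.83 for B2m, while in fixed draining dendritic cells B2m alone was called (-0.30 ± 0.08, adjusted p = 0.045; background 2.8%). Naive dendritic cells had 6610.3, 6773, 6171 and 6918 TMM-scaled CPM of B2m. The 5 dendritic cell gate markers moved along, summing to 5538 to 6519.7 CPM in fixed draining, 4316 to 4945 in fixed non-draining and 6062 to 7014 in naive dendritic cells, and their part in the class I values was not tested. The median mitochondrial share of a dendritic cell's UMIs was 9.96 to 12.0% in fixed non-draining and 8.79 to 9.50% in fixed draining libraries, against 4.95 to 5.67% in naive ones, and with at most 10% mitochondrial UMIs 7 of the 8 genes were called lower. The fixed non-draining libraries held 90 to 150 dendritic cells each, against 314 to 504 in naive libraries. Calls lost with 1 library left out were those of Psmb10 without fixed non-draining A or C or naive A or C (-0.34 to -0.27, adjusted p 0.054 to 0.18), Nlrc5 without fixed non-draining C or naive B (-0.35 to -0.34, adjusted p 0.0501 to 0.10) and, in fixed draining dendritic cells, B2m without fixed draining A, B or C or naive A, B, C or D (-0.34 to -0.23, adjusted p 0.069 to 0.29).

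Among other leukocytes few genes moved. Monocytes or macrophages had Psmb8 at 512, 505 and 506 TMM-scaled CPM in live draining nodes, against 424, 444 and 303 in live non-draining nodes (0.38 ± 0.11, adjusted p = 0.022), and Psmb10 was higher by 0.35 ± 0.11, adjusted p = 0.027 (2 of 10, background 13.2%). The effects of both differed between inocula, Psmb8 by 0.75 ± 0.16, adjusted p = 0.0049 and Psmb10 by 0.66 ± 0.16, adjusted p = 0.012 (background 4.6%), and none was called with fixed cells (background 2.41%), where 6 of 10 had an unadjusted p under 0.05 and DESeq2 called 1. In B cells B2m was higher with fixed cells, at 2100.1, 1916 and 1873 in fixed draining nodes, against 1486, 975 and 998 in fixed non-draining nodes (0.75 ± 0.15, adjusted p = 0.034; background 0.149%), and none was called with a live tumor (background 1.86%), none at an unadjusted p under 0.05 and none by DESeq2. In T cells Psmb10 was higher with a live tumor, at 173, 210.4 and 301 in live draining nodes, against 145, 139 and 133 in live non-draining nodes (0.69 ± 0.19, adjusted p = 0.045; background 2.38%), and none with fixed cells (0.0%; 3 at an unadjusted p under 0.05, none by DESeq2). Each of these calls but the differences between inocula was lost with 1 library left out: in monocytes or macrophages for Psmb8 without live draining A, B or C or live non-draining C (0.22 to 0.38, adjusted p 0.0504 to 0.21) and Psmb10 without live draining A or B or live non-draining C (0.26 to 0.35, adjusted p 0.065 to 0.17), in B cells for B2m without fixed draining A or B or fixed non-draining B or C (0.63 to 0.75, adjusted p 0.11 to 0.18) and in T cells for Psmb10 without live draining B or C, live non-draining A, B or C, fixed draining C or naive A, B, C or D (0.45 to 0.75, adjusted p 0.053 to 0.35). With at most 1 marker of another lineage, B2m in B cells was at 0.15, adjusted p = 0.91.

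No member was called in blood endothelial cells (live background 0.901%, fixed 0.0%), mural cells (0.849% and 0.0%), plasma cells (1.26% and 0.0526%) or mast cells (0.0% and 0.0%), where the background itself was low, and Nlrc5 fell under the filter on low counts in mural, plasma and mast cells. Live and fixed, the genes with an unadjusted p under 0.05 numbered 0 and 1 in blood endothelial, 0 and 1 in mural, 0 and 0 in plasma and 1 and 2 in mast cells, and DESeq2 called none. In NK cells (3 live draining and 2 live non-draining libraries) none of 9 members tested was called by edgeR, the one tool run there (background 0.187%), and none had an unadjusted p under 0.05. B2m averaged 3911 ± 453 TMM-scaled CPM in NK cells of live draining nodes, against 3775 ± 169 in those of live non-draining nodes (0.05 ± 0.30, adjusted p = 0.99). In blood endothelial cells, the other endothelium of the node, Tap1 had 172, 208 and 177 TMM-scaled CPM in live draining nodes, against 179, 195 and 251 in live non-draining nodes (-0.16 ± 0.20, adjusted p = 0.79), and H2-K1 had -0.02 ± 0.17, adjusted p = 0.99.

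Against naive nodes, Psmb10 was the gene most widely higher in live draining nodes outside the LECs. It was higher in MRC (0.63 ± 0.13, adjusted p = 2.6e-04), where H2-D1 (0.32 ± 0.11, adjusted p = 0.028) and Psmb8 (0.42 ± 0.14, adjusted p = 0.025) were too (background 18.0%), and in MedRC (0.35 ± 0.10, adjusted p = 0.014), with Tap1 (0.37 ± 0.12, adjusted p = 0.047; background 11.0%). It was also higher in B cells (0.48 ± 0.13, adjusted p = 0.027; background 4.61%) and T cells (0.63 ± 0.17, adjusted p = 0.028; background 3.86%). In MRC, Psmb10 had 137, 155 and 161 TMM-scaled CPM in live draining nodes, against 87.6, 104, 93.2 and 106 in naive nodes. In dendritic cells Psmb8 alone was higher (0.28 ± 0.08, adjusted p = 0.032; background 5.91%), and in TRC Tapbp alone was called, lower at -0.33 ± 0.08, adjusted p = 0.003 (background 11.4%). With at most 1 marker of another lineage the calls were lost for Psmb10 0.10, adjusted p = 0.88 and Tap1 0.39, adjusted p = 0.50 in MedRC, H2-D1 0.26, adjusted p = 0.81 and Psmb8 0.21, adjusted p = 0.93 in MRC, Psmb10 0.45, adjusted p = 0.28 in T cells, Psmb8 0.19, adjusted p = 0.21 in dendritic cells and Tapbp -0.27, adjusted p = 0.62 in TRC. Psmb10 in MRC was then at 3.63, adjusted p = 0.034, far from the 0.63 of the main fit. In the live comparison this gate gave no value for Psmb10 in MRC. How many MRC the gate left per library is not given, so the 3.63 is not read as a larger change. Calls that single libraries decided were, in MRC, those of H2-D1 without live draining A, B or C or naive A or B (0.28 to 0.34, adjusted p 0.06 to 0.11) and Psmb8 without live draining B or C or naive A, B or C (0.29 to 0.42, adjusted p 0.055 to 0.19), in MedRC those of Psmb10 without live draining C (0.29, adjusted p 0.13) and Tap1 without live draining B or C, live non-draining A, fixed draining A or naive B, C or D (0.27 to 0.39, adjusted p 0.051 to 0.30), in B cells that of Psmb10 without live draining A or C or naive B, C or D (0.43 to 0.48, adjusted p 0.052 to 0.12), in T cells that of Psmb10 without live draining B or C or naive A, B, C or D (0.39 to 0.69, adjusted p 0.058 to 0.37) and in dendritic cells that of Psmb8 without live draining B or C, live non-draining B or naive A, B, C or D (0.23 to 0.30, adjusted p 0.057 to 0.19).

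Genes that work with the 10 were counted from lists, again against the 26.2% called in fLECs. In live draining fLECs, 3 of 7 genes of the interferon-gamma receptor and its signal were higher and none lower. Socs1, which feeds back on JAK kinases, averaged 109.7 ± 7.68 TMM-scaled CPM in live draining fLECs and 41.1 ± 4.46 in live non-draining fLECs (SD, n = 3 each; 1.44 ± 0.14, adjusted p = 8.4e-13). Jak2 (0.75 ± 0.13, adjusted p = 8.4e-06) and Irf1 (0.63 ± 0.10, adjusted p = 1.3e-06), a kinase of the receptor and a transcription factor of the interferon response, were the others, and Ifngr2, a chain of the receptor, had 0.01 ± 0.09, adjusted p = 0.95.

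Other proteasome genes were higher too. Psme2, a subunit of the PA28 activator, averaged 399.5 ± 17.0 TMM-scaled CPM in live draining fLECs and 198 ± 24.7 in live non-draining fLECs (0.99 ± 0.09, adjusted p = 1.5e-13), and its partner Psme1 was higher by 0.47 ± 0.08, adjusted p = 9.9e-06, while Psme3, of another activator, was not called (2 of 3 higher). All 3 constitutive catalytic subunits, which the immunoproteasome subunits replace, were also higher: Psmb7 averaged 560.0 ± 29.0 in live draining fLECs and 267 ± 46.9 in live non-draining fLECs (1.04 ± 0.10, adjusted p = 3.2e-10), Psmb5 was higher by 0.50 ± 0.09, adjusted p = 2.1e-05 and Psmb6 by 0.33 ± 0.09, adjusted p = 0.0041. Psmb10, the counterpart of Psmb7, had a log2 fold change of 0.50, and the difference between them was not tested.

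Of 5 loading and trimming partners 3 were higher in live draining fLECs: Tapbpl (0.50 ± 0.15, adjusted p = 0.0094), a tapasin relative, Pdia3 (0.36 ± 0.08, adjusted p = 6.6e-04) and Calr (0.34 ± 0.08, adjusted p = 0.0013), which sit in the loading complex, and Canx was not called (0.08 ± 0.08, adjusted p = 0.47). Of 8 nonclassical and Q-region heavy chains 5 were higher, among them H2-T22 (0.77 ± 0.08, adjusted p = 8.0e-11), H2-T23 (0.50 ± 0.08, adjusted p = 1.9e-06) and H2-Q7 (0.21 ± 0.08, adjusted p = 0.043), whereas H2-Q6 was not (-0.06 ± 0.08, adjusted p = 0.67); reads of these related genes may be shared. Of the 7 genes for proteins that bind the SXY module, none was higher and Creb1 was lower (-0.32 ± 0.10, adjusted p = 0.011).

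In cLECs with a live tumor, against a background of 16.6%, 3 of 7 interferon-signal genes were higher (Socs1 1.31 ± 0.43, adjusted p = 0.028), as were all 3 constitutive catalytic subunits (Psmb7 0.72 ± 0.11, adjusted p = 8.4e-07), 3 of 8 nonclassical heavy chains (H2-T22 0.58 ± 0.09, adjusted p = 4.5e-06, H2-Q7 0.48 ± 0.07, adjusted p = 2.7e-07), 2 of 5 loading partners and 1 of 3 activator genes. In TRC (background 6.24%), 1 of 7 interferon-signal genes was lower. Irf1 was lower (-0.61 ± 0.13, adjusted p = 0.0018), as were 3 of 7 tested nonclassical heavy chains (H2-T23 -0.37 ± 0.10, adjusted p = 0.0089, H2-Q6 -0.53 ± 0.10, adjusted p = 1.8e-04), while the constitutive subunit Psmb5 was higher (0.43 ± 0.12, adjusted p = 0.012). Over all fibroblastic cells (background 25.5%) all 3 constitutive subunits were higher (Psmb5 0.47, Psmb6 0.44, Psmb7 0.40 on the log2 scale), where none of the immunoproteasome subunits was called.

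**Figure D5:**
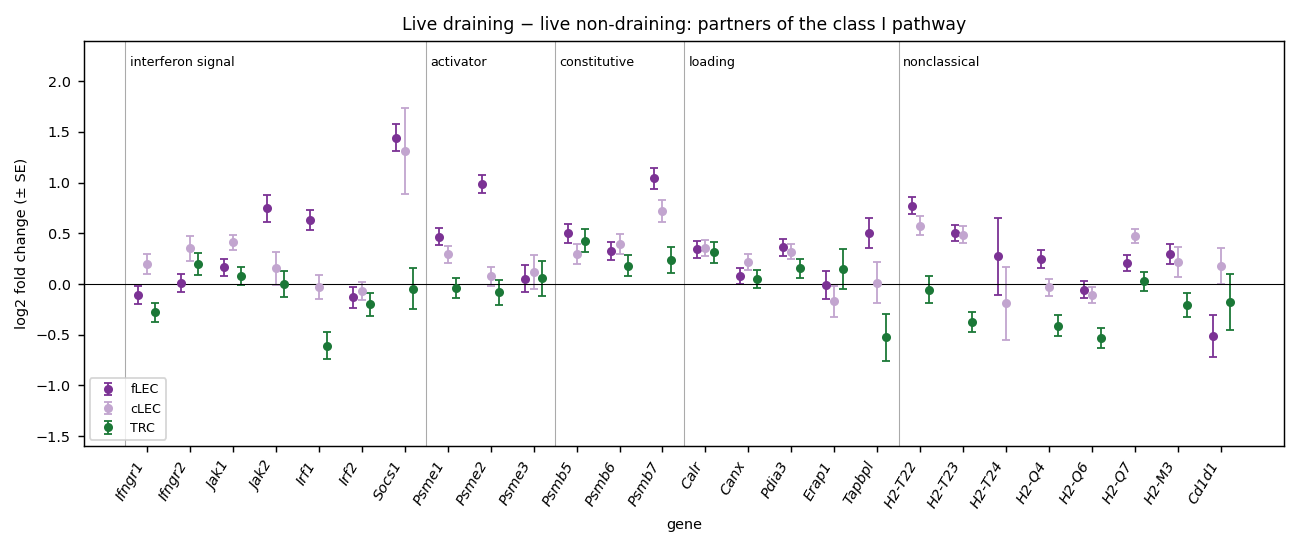
Log2 fold change ± SE, live draining over live non-draining, of the named partner genes in fLECs, cLECs and TRC. Socs1 and Psmb7 stand above 0 in fLECs (Socs1 1.44, Psmb7 1.04), and Irf1 stands below 0 in TRC (-0.61).

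Interferon-gamma transcripts were rare in these node suspensions. Ifng had 107 UMIs over the lineages and libraries counted, which had at least 10 cells of the lineage. Neutrophils and cells without a lineage were not counted. NK cells held 14 in live draining, 14 in live non-draining, 12 in fixed draining and 41 in naive nodes. Left out for few NK cells were all fixed non-draining libraries (4 to 7 cells), fixed draining A (8) and live non-draining C (7). T cells held 5 in live draining, 1 in live non-draining, 3 in fixed draining, 2 in fixed non-draining and 8 in naive nodes. The libraries were enriched for PDPN+ cells, and these counts are too low to compare groups.

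Across the 16 libraries the 10 genes moved together in LECs and less so in fibroblastic cells. The Pearson r of a gene with the mean of the other 9, as a description over libraries that share groups and depth, ran from 0.63 for Nlrc5 to 0.98 for H2-D1 in LECs, and from -0.24 for Tapbp to 0.77 for H2-K1 in fibroblastic cells. The genes outside the 10 most like their mean in LECs were Itga2b (r = 0.986), Tnfrsf1a (r = 0.978), Clu (r = 0.978), C3 (r = 0.970), Cpe (r = 0.969), H2-Q7 (r = 0.969), Tmem173 (r = 0.965) and Il33 (r = 0.965). In fibroblastic cells 7 of the 8 most like were Gm2564 (r = 0.784), Vps16 (r = 0.781), Tnfaip3 (r = 0.757), Clec2d (r = 0.749), Kars (r = 0.724), Hdac9 (r = 0.718) and Abhd17c (r = 0.715).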

How the data were processed

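The authors deposited UMI counts per gene and barcode for 16 droplet libraries (10x 3′ chemistry). Per the submitters' processing notes they used Cell Ranger 3.0.1 and mm10. Reads, and any removal of free RNA, were not analysed here. Barcodes with 200 to 6000 genes and at most 30% mitochondrial UMIs were kept, as in the study's methods, and no doublet caller was run; the methods mention no removal of doublets. Of these cells 37585 took the lineage with the highest number of detected markers (5 each, at least 2 detected, no tie), then a subset (3 markers each). Of them 13211 led by 1 marker, 15026 also had at least 2 markers of another lineage, and 4740 ties and 8061 cells under 2 markers were left out. The names come from this gate and may differ from the study's clusters.

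UMIs were summed per library and type (at least 10 cells) and all libraries were fitted together with edgeR 4.0.16 in R 4.3.3 (TMM, filterByExpr, robust quasi-likelihood, two-sided, Benjamini-Hochberg over all genes tested in a type). The standard error is the absolute log2 fold change over the square root of F. DESeq2 1.42.0, RLE factors, library size alone, no filter, 12 libraries, a replicate block, other gates and limits on cells, and leaving out each library were the alternatives, and a gate allowing at most 1 marker of another lineage was added after seeing the data. The steps were tested on simulated data.

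The 10 genes, the lists and the markers were chosen with earlier results of these data known. By the naming rule the 10 genes may be named in every type (those not called are given in part as counts), up to 4 of each list by smallest live p in LECs or fibroblastic cells, and, for likeness, the 8 other genes of highest Pearson r among genes averaging 5 or more in log2 CPM. A gene of 1 list is not reported here. Whether counting used strand is not given in the sources used here.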

Additional observations from a re-analysis of the deposited data

Results flagged for a closer look

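The draining effect, draining against non-draining, differed between the live and the fixed inoculum by the interaction test in 31 of the 167 gene and cell type combinations tested over 17 types, of which LECs and fibroblastic cells hold the cells of their subsets. The share of all genes called for this difference was 12.2% in fLECs, 10.3% in cLECs, 1.99% in MedLECs, 22.9% in LECs, 4.6% in monocytes or macrophages, 2.52% in MRC, 0.646% in TRC and 4.82% in dendritic cells. In fLECs the log2 effect of the live tumor exceeded that of fixed cells for Tap1 (1.32), Psmb8 (0.76), Psmb10 (0.61), Psmb9 (0.58), H2-D1 (0.57), Tapbp (0.54) and H2-K1 (0.39). In cLECs it did so for Psmb8 (0.83), Tap1 (0.69), Psmb10 (0.64), H2-D1 (0.62), H2-K1 (0.44), B2m (0.44) and Tapbp (0.36). In MedLECs it did so for Tap1 (1.16) and Psmb8 (0.75). Over all LECs, which hold these subsets, the differences were Tap1 (1.22), Psmb8 (0.95), Psmb10 (0.85), Psmb9 (0.67), Tapbp (0.65), H2-D1 (0.64), B2m (0.43), H2-K1 (0.41) and Tap2 (0.25). Monocytes or macrophages had positive differences for Psmb8 (0.75) and Psmb10 (0.66), and MRC for Psmb10 (0.95). The difference was negative for Psmb9 in TRC (-0.74) and for Tapbp (-0.53) and B2m (-0.46) in dendritic cells.

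Among the groups of 4 naive libraries, 8 of 110 (10 genes in 11 types: the LEC and fibroblastic types, dendritic cells and monocytes or macrophages) held a library far from the other 3, where chance alone would give about 1 in 20. Naive library B accounted for 5 of them. It had 181 TMM-scaled CPM of Tap2 in cLECs, against 188 to 189.8 in the others, 6163 of B2m in LECs, against 5531 to 5630.0, and in MedLECs 5699 of H2-K1, against 5515 to 5536, 244 of Tap1, against 214 to 219, and 216 of Psmb9, against 263 to 268. Naive library C had 283 of Tapbp in cLECs, against 248 to 249. Naive library D had 1840.5 of H2-K1 in fibroblastic cells, against 1673 to 1700.3, and 4792 of H2-K1 in dendritic cells, against 4447 to 4486.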

How the results depend on the processing

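Of the 80 calls of single genes in the live, fixed and live-against-fixed comparisons, 54 kept their side of the threshold without any 1 library and 23 under every alternative. DESeq2 kept 75 of 80, RLE size factors 79, scaling by library size alone 71, no filter on low counts 76, the 12 libraries of inoculated mice 73, at most 10% mitochondrial UMIs 72, a gate with a margin of 2 markers 47 of 79, at most 50 cells per library 30, where fewer cells are summed, and at most 1 detected marker of another lineage (chosen after seeing the data) 40 of 78, where fewer cells are left. Of 63 calls against naive, 39 were kept without any 1 library, 20 under every alternative and 29 of 63 under the last gate. Under that gate the sign turned in 1 of the first set, Tap1 in TRC, live draining against live non-draining, 0.33, adjusted p = 0.78, and in 1 against naive, Psmb8 in MedLECs, live draining against naive, -0.11, adjusted p = 0.89; the cause was not tested.

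The number of genes called moved as follows. In fLECs 10 were called live and the last gate gave 6; between inocula 7 were called, and the 50-cell limit gave 4 and the last gate 4. In cLECs 6 were called live, and the stricter gate gave 3, the 50-cell limit 3 and the last gate 2; between inocula 7 became 4, 2 and 4. In LECs 8 live calls became 5 under the 50-cell limit. The LEC live call of H2-K1 was also lost with the stricter gate and the last gate, and that of B2m with the last gate. In fibroblastic cells 2 live calls became 1 with the 12 libraries, the stricter gate or the mitochondrial limit and 0 with the 50-cell limit or the last gate. In TRC 2 live calls became 4 with DESeq2 or library size alone, 1 with no filter or the stricter gate and 0 with the 50-cell limit or the last gate. In dendritic cells 5 fixed calls became 2 with the stricter gate and 0 with the 50-cell limit. Without single libraries the counts ran from 9 to 10 in fLECs live, 6 to 8 between inocula, 5 to 6 in cLECs live, 6 to 8 between inocula, 8 to 10 in LECs, 1 to 3 in fibroblastic cells, 1 to 4 in TRC and 3 to 7 in dendritic cells with fixed cells.

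The libraries' letters were not treated as pairs, since no label says that a letter marks a mouse. Of 102 correlations between the deviations of same-letter draining and non-draining libraries 3 were over 0.1 (range -0.17 to 0.29). These deviations, taken from means of 3 libraries, cannot decide whether the letters mark mice. A replicate block by letter kept 69 of 80 calls and gave 1 live call in fibroblastic cells, 1 in TRC and 3 fixed calls in dendritic cells. NK cells and PRC were not fitted under the alternatives. Depth limits Nlrc5, which had 2 to 5 UMIs per library in BECs of fixed non-draining nodes.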
